A study of Mus musculus with 2 samples.

Results

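The genes described here were the secreted and membrane-bound cues of axon guidance and their receptors: the semaphorins and plexins, the ephrins and Eph receptors, the Slits and Robos, and the netrins and Unc5 receptors. They were chosen by symbol from the gene rows of both expression tables, with no use of a measured value, and 62 of the 21722 genes listed in either table were members. The 62 comprised 20 semaphorins, 9 plexins, 8 ephrins, 12 Eph receptors, 3 Slits, 4 Robos, 3 netrins and 3 Unc5 receptors. All but Epha10, which was listed in the fibrosis table alone, were in both tables.

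Single-cell RNA was read by the 10x 3′ chemistry in nonparenchymal cells from the liver of male C57BL/6 mice, in 1 library from a normal liver and 1 from a fibrotic liver. The fibrotic liver came from a mouse given carbon tetrachloride (CCl4, a liver toxin, 15% in olive oil at 0.6 µl per g) by intraperitoneal injection 2 times a week for 6 weeks, and the normal liver from a mouse given olive oil. Both mice were 8 weeks old at the start, and cells were taken 48 h after the last injection. Each condition was therefore 1 mouse and 1 library, so that no test between conditions was possible. Intervals below are exact 95% intervals that cover counting error only, and the spread between mice is unknown.

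As background, guidance cues were first known for steering growing axons, and the same pairs act between vascular, stromal and immune cells. Semaphorins signal through plexins, with neuropilins as co-receptors for the secreted class 3 semaphorins. Ephrins are held on the cell surface and bind Eph receptor tyrosine kinases on a neighbouring cell, Slits are secreted ligands of Robo receptors, and netrins are laminin-related secreted proteins that bind Unc5 receptors and the Dcc family. In vessels, ephrin-B2 is a classical arterial marker and its receptor Ephb4 a venous one. The liver sinusoid runs from the portal tract (zone 1) to the central vein (zone 3), and its endothelium (LSECs) is bordered by hepatic stellate cells (HSCs), the pericytes that become myofibroblasts (MFs) in fibrosis.

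Of the members with a zonal difference in LSECs, 3 with more RNA in portal-side LSECs (Efnb1, Efnb2 and Ntn4) and 1 with more in central-side LSECs (Plxnc1) are shown with the 250 bases before their RefSeq transcription start (GRCm38.p6), because these windows are where a zonal regulator could be looked for. The windows are Efnb1 chrX:99135811-99136060 on the plus strand, Efnb2 chr8:8661243-8661492 on the minus strand, Ntn4 chr10:93640799-93641048 on the plus strand and Plxnc1 chr10:94944846-94945095 on the minus strand. Each is printed 5′ to 3′ on the strand of its gene, and capitals mark a match to a searched motif.
Efnb1: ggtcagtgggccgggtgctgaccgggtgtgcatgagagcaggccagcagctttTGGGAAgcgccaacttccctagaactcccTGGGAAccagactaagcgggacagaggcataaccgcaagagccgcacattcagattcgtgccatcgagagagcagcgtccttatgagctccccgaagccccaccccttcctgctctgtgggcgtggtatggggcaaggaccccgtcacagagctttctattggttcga
Efnb2: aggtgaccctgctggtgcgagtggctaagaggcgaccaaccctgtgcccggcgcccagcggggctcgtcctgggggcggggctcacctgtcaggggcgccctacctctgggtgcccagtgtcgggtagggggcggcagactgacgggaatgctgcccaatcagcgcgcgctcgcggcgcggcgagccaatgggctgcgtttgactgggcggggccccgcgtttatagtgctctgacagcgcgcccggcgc
Ntn4: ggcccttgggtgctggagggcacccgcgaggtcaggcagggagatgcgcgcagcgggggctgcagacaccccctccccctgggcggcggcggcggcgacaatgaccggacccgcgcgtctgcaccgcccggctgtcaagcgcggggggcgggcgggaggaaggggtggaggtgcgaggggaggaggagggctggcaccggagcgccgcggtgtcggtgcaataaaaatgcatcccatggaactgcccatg
Plxnc1: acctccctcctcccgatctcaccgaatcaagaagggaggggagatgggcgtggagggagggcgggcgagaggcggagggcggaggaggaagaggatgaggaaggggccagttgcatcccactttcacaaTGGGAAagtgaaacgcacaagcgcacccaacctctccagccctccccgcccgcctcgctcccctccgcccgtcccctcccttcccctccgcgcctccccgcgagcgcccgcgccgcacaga

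The motifs searched on both strands were the RBPJ core TGGGAA (the Notch effector), the TCF/LEF core CTTTGAT (the Wnt effector), the ETS core CCGGAAG and the GATA core AGATAA, which do not overlap each other in these windows. The Efnb1 window held the RBPJ letters 197 and 168 bases before the start, and the Plxnc1 window held them once, 121 bases before it. Neither the Efnb2 window nor the Ntn4 window held any of the motifs. Efna1 and Sema3d, the other members with a zonal difference, are not printed, and their windows held none of the motifs either. The RBPJ letters are common, being in 21.6% of all 32851 windows of this length. The TCF/LEF, ETS and GATA letters were in 3.21%, 6.91% and 9.99% of them. The RBPJ letters were in 12 of the 70 windows of members. Among the 54 members matched in the promoter table, 11 held the RBPJ letters in a window, 2 the ETS letters, 3 the GATA letters and 0 the TCF/LEF letters. A match is a description of the letters and was not tested for binding.

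The normal library held 8130 cells and 44062632 unique molecular identifiers (UMIs, 1 per captured molecule), with a median of 4144.5 per cell, and the fibrosis library 6437 cells and 53288463 UMIs, with a median of 5619 per cell. The libraries shared 15 cell barcodes. After removing cells with 10% or more mitochondrial UMIs or with 200 or fewer genes, 7471 normal and 6132 fibrosis cells were clustered per library without the members. Clusters were named "X-like" from marker lists. The HSC/MF-like class held Lrat, the retinoid-storing enzyme of HSCs, at 15.7 UMIs per 10000 in normal and 17.0 in fibrosis cells, and Reln at 24.5 and 19.5. The normal HSC/MF-like cells were also led by the immune genes Ighm, Ccl2 and Ccl5. Every level below is the summed UMIs of a class per 10000 of its UMIs, which compares 1 gene between classes and not 1 gene with another. A gene was compared between groups where the mean of their levels was at least 0.1 and both together had at least 20 UMIs, and a difference was counted at a ratio of at least 2 or at most 0.5.

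Of the 62 members, 52 reached 0.1 UMIs per 10000 with 20 UMIs in at least 1 class. The other 10 were Efna3, Efnb3, Epha5, Epha10, Ntn5, Plxnb3, Sema3e, Sema5b, Slit1 and Unc5c. The highest level of each member was found mainly in vessels and stroma. Only classes with at least 0.1 UMIs per 10000 and 20 UMIs of the gene were ranked for this. In the normal library Ephb2 was therefore counted as immune (0.145 in pDC-like cells) and Sema3b as epithelial (0.240 in cholangiocyte-like cells). Their levels were higher in PF-like cells (0.253 and 0.534), which had too few UMIs of them. In the normal library 15 of 49 members (30.6%) were highest in an endothelial class, where 19.6% of all 12585 genes were, and 19 (38.8%) in a mesenchymal class, where 13.2% of all genes were. Immune classes held the highest level of 9 (18.4%, against 43.3% of all genes) and epithelial classes of 6 (12.2%, against 23.9%). In the fibrosis library 17 of 52 members (32.7%) were highest in endothelial classes and 20 (38.5%) in mesenchymal classes, against 16.1% and 19.1% of all 12525 genes. The counts in immune and epithelial classes were 8 (15.4%, against 39.9%) and 7 (13.5%, against 24.9%). A smaller share of the members than of all genes was thus highest in immune cells in both libraries, which is a description with no test.

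**Figure D1:**
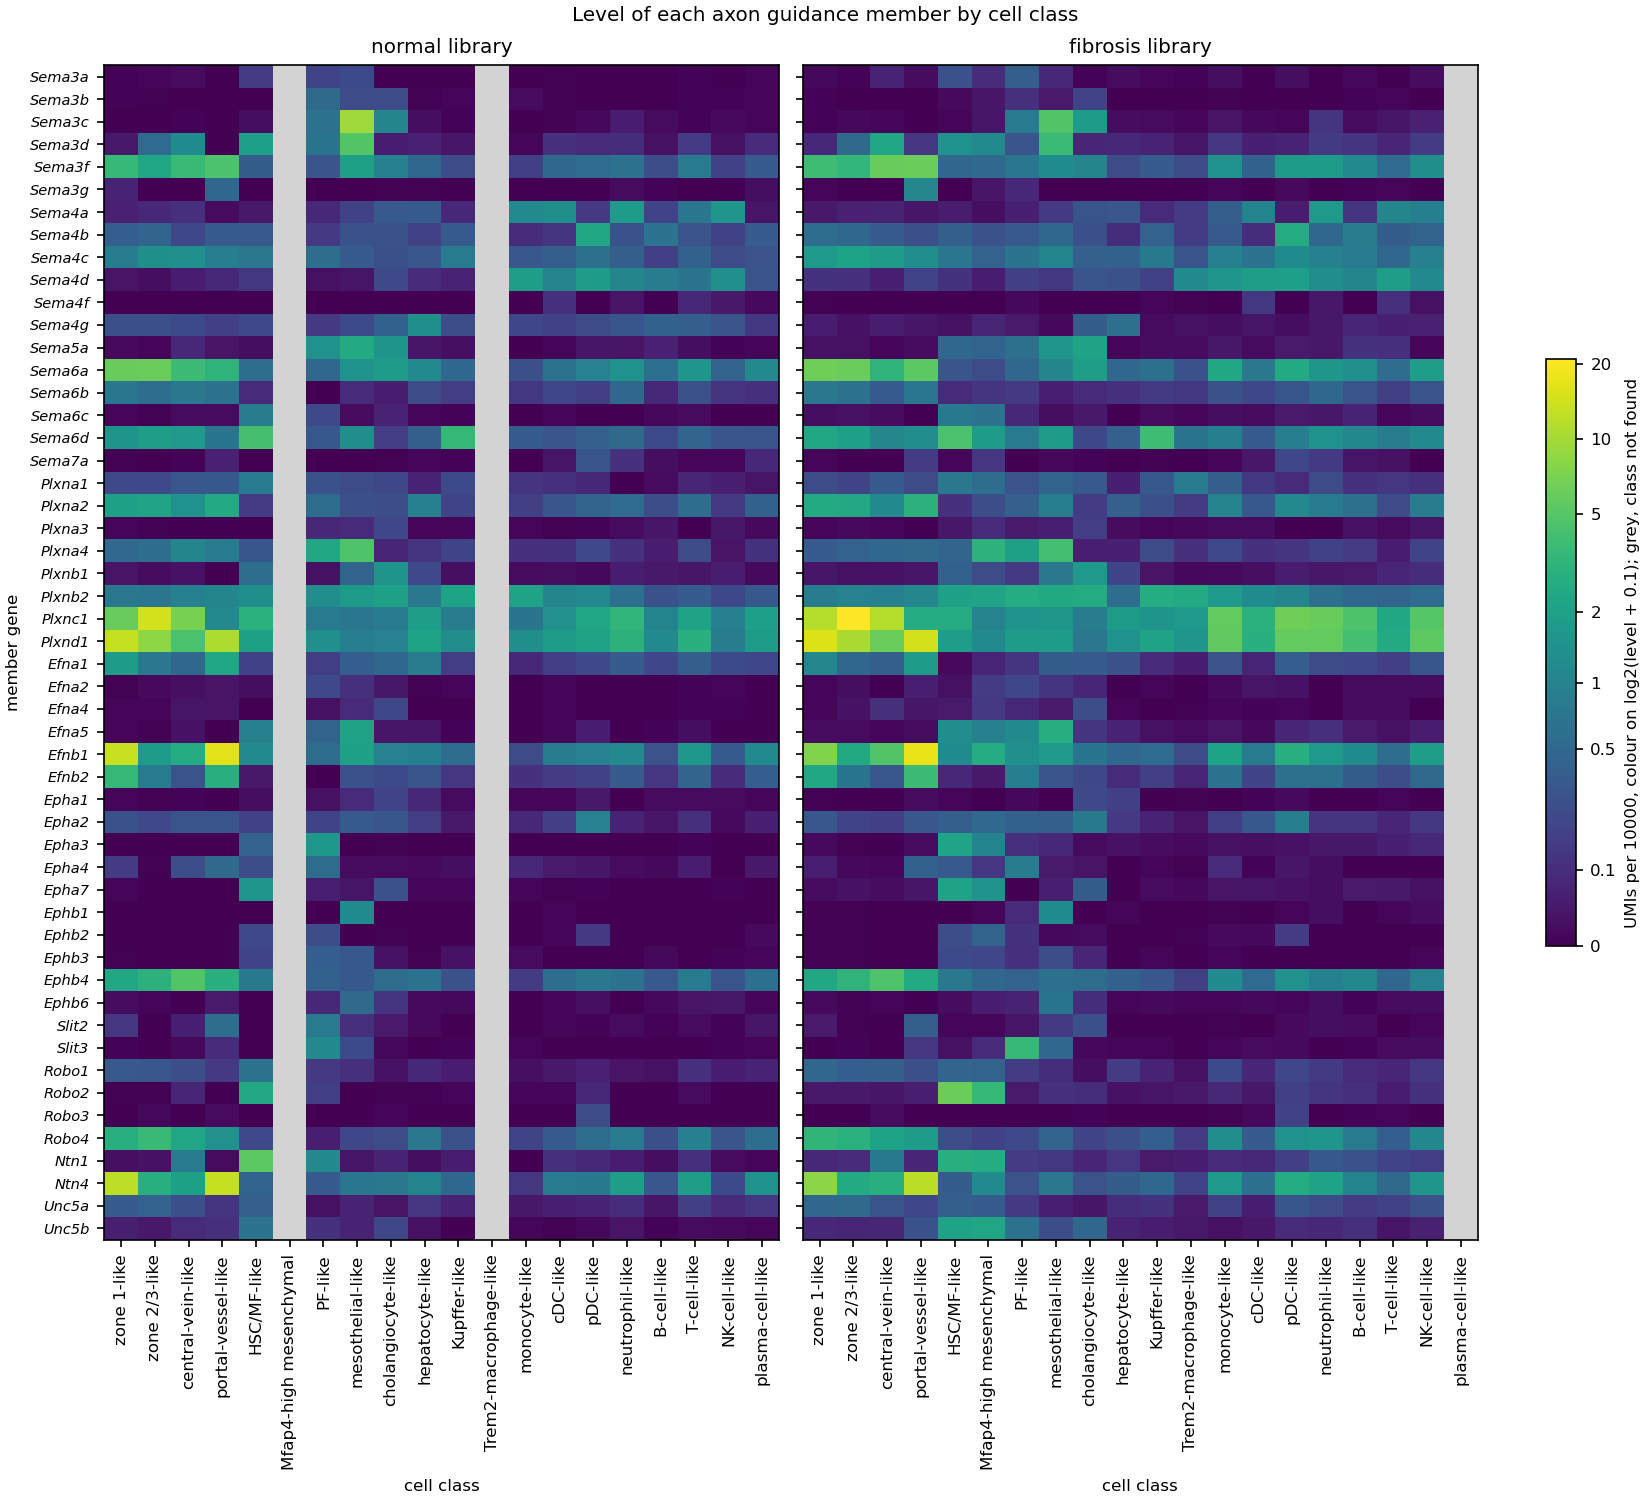
Levels of the 52 members (rows, by family) in each cell class (columns) of the normal (left) and fibrosis (right) library, in UMIs per 10000 with colour on the log2(level + 0.1) scale; grey marks a class not found in that library. Plxnc1, Plxnd1, Efnb1 and Ntn4 reached 8 or more in endothelial classes, Robo2 and Epha7 were highest in HSC/MF-like cells, and Sema4a and Sema4d in immune classes. The fibrosis PF-like column is the Clca3a2-led group of 29 cells.

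The first question was how guidance genes differ between portal-side (zone 1-like, 594 normal and 471 fibrosis cells) and central-side (zone 2/3-like, 387 and 400 cells) LSECs. These names rested on the leading genes of each sub-cluster. In the larger zone 1-like sub-cluster of each library (302 normal and 306 fibrosis cells) the zone 1 markers averaged below the other endothelial cells (mean log2 fold −0.44 and −0.73). So did the zone 2/3 markers in a normal zone 2/3-like sub-cluster of 125 cells (−0.58). The averages of the other zone sub-clusters were positive. Of 23 members compared in the normal library, 4 (Efnb1, Ntn4, Efnb2 and Efna1) were at least 2 times higher in zone 1-like cells, where 3.0% of all 9027 genes compared were, and 2 (Plxnc1 and Sema3d) were at least 2 times lower, where 1.67% were. In the fibrosis library the same 4 members were higher, against 0.93% of 8813 genes, and Sema3d alone was lower, against 0.896%. The portal-side group was made of 3 ephrins and the netrin of basement membranes. The median log2 ratio of the 23 members was −0.01 in the normal library, beside 0.06 over all genes, and 0.16 in the fibrosis library, beside −0.00 over all genes.

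Efnb1, the X-linked ephrin-B1 gene (chromosome X, 99136130 to 99148991 in GENCODE for GRCm38), stood at 13.4 UMIs per 10000 in normal zone 1-like cells (5231 UMIs, interval 13.1 to 13.8) and at 1.79 in zone 2/3-like cells (480 UMIs, 1.63 to 1.95), a ratio of 7.52 (6.84 to 8.27). In the fibrosis library Efnb1 was at 7.60 and 2.50, a ratio of 3.04 (2.82 to 3.28). Zone 1-like cells were higher in both libraries. The difference between the 2 ratios was not tested, since each library stands for 1 condition and the zone classes differed in makeup. Portal-vessel-like endothelium, the larger vessels that feed the sinusoids, held Efnb1 at 16.4 (normal) and 17.4 (fibrosis). Central-vein-like cells held Efnb1 at 2.58 and 4.84.

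Efnb2, the arterial ephrin (chromosome 8, 8617434 to 8661242), was at 3.40 in normal zone 1-like cells and 0.804 in zone 2/3-like cells, a ratio of 4.23 (3.66 to 4.91). In fibrosis Efnb2 was at 2.34 and 0.698, a ratio of 3.35 (2.90 to 3.87). Its level was 2.82 and 3.84 in the portal-vessel-like cells of the normal and fibrosis library, and 0.301 and 0.323 in the central-vein-like cells. Ephb4, its venous receptor, ran the other way, with 4.77 and 4.73 in central-vein-like cells. Ephb4 was at 2.99 and 3.17 in zone 2/3-like cells and 2.38 and 2.36 in zone 1-like cells, and the zone ratios of 0.796 (0.724 to 0.876) and 0.745 (0.683 to 0.813) were within the 2-fold limits. Portal-vessel-like cells held Ephb4 at 2.88 and 2.55, above the zone 1-like level. Efnb2 was thus highest in zone 1-like (normal) or portal-vessel-like cells (fibrosis), and Ephb4 in central-vein-like cells of both libraries.

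Efna1, a GPI-anchored ephrin, was at 1.77 in zone 1-like and 0.756 in zone 2/3-like cells of the normal library (ratio 2.34, 2.0 to 2.75) and at 1.09 and 0.515 in the fibrosis library (2.12, 1.78 to 2.54), with its highest level in portal-vessel-like cells (2.21 and 1.79). Epha4, an Eph receptor for both ephrin classes, was a portal-vessel gene among endothelial cells (0.541 and 0.422). Epha4 was at 0.254 in normal central-vein-like cells, and only 1 UMI was counted in those of the fibrosis library (0.00978). Epha2, the main Eph receptor of epithelia, was low in both zones (0.288 and 0.227 in the normal library).

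Ntn4, netrin-4, which unlike netrin-1 binds laminins of the basement membrane, followed the ephrins. Ntn4 was at 12.3 in normal zone 1-like cells (4805 UMIs) and 2.73 in zone 2/3-like cells (734 UMIs), a ratio of 4.52 (4.18 to 4.89). In the fibrosis library Ntn4 was at 8.27 and 2.51, a ratio of 3.30 (3.06 to 3.55). Portal-vessel-like cells held 13 and 12.1, and central-vein-like cells 1.98 and 2.84. Ntn1, the classical netrin, was instead a central-vein gene within endothelium (0.819 and 0.763 in central-vein-like cells). Unc5a, a netrin receptor, was at 0.365 and 0.439 in normal zone 1-like and zone 2/3-like cells, a difference within counting error (ratio 0.830, 0.646 to 1.07).

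Plxnc1, the receptor of the membrane semaphorin Sema7a (chromosome 10, 94790866 to 94944835), had more RNA on the central side. Its level was 5.99 in zone 1-like and 14.5 in zone 2/3-like cells of the normal library (ratio 0.412, 0.391 to 0.434) and 11.5 and 20.8 in those of the fibrosis library (0.555, 0.534 to 0.575). Portal-vessel-like cells had little Plxnc1, 1.15 and 2.63, and central-vein-like cells 6.87 and 11.5. Sema7a, its ligand, reached no more than 0.154 in any endothelial class (portal-vessel-like, fibrosis, 8 UMIs). Plxnd1, the endothelial plexin that binds Sema3e, leaned to zone 1 (13 against 8.31 in the normal and 15.6 against 10.5 in the fibrosis library), at ratios of 1.57 and 1.49 that did not reach 2. Sema3e itself was among the members below the level rule.

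Sema3d, a secreted semaphorin, was scarce in zone 1-like cells (17 UMIs, level 0.0437, in the normal library and 33 UMIs, 0.0796, in the fibrosis library) and present in zone 2/3-like cells (146 UMIs, 0.544, and 184 UMIs, 0.533). The ratios were 0.0803 (0.0455 to 0.133) and 0.149 (0.0998 to 0.217). Sema3d was higher still in central-vein-like cells, at 1.26 and 2.24. Sema3g had the reverse distribution, with levels of 0.494 and 1.09 in portal-vessel-like cells and of at most 0.0719 in the other endothelial classes. Sema3f, a ligand of Nrp2, was in all endothelial classes, from 2.29 in normal zone 2/3-like to 6.05 in fibrosis portal-vessel-like cells.

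The Robo and remaining semaphorin genes of LSECs differed little by zone. Robo4, the endothelial Robo, had a zone ratio of 0.759 (0.696 to 0.829) in the normal and 1.09 (1.01 to 1.19) in the fibrosis library, and Sema6d one of 0.772 (0.684 to 0.871) and 1.21 (1.10 to 1.34). Both ratios were below 1 in normal cells and above 1 in fibrosis cells, and the difference between libraries was not tested. Sema6a, a transmembrane semaphorin, was nearly level across zones (0.963, 0.904 to 1.03, and 1.04, 0.986 to 1.11). Slit2, a Robo ligand, was at 0.589 and 0.403 in portal-vessel-like cells, and at 0.134 in normal zone 1-like cells.

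**Figure D2:**
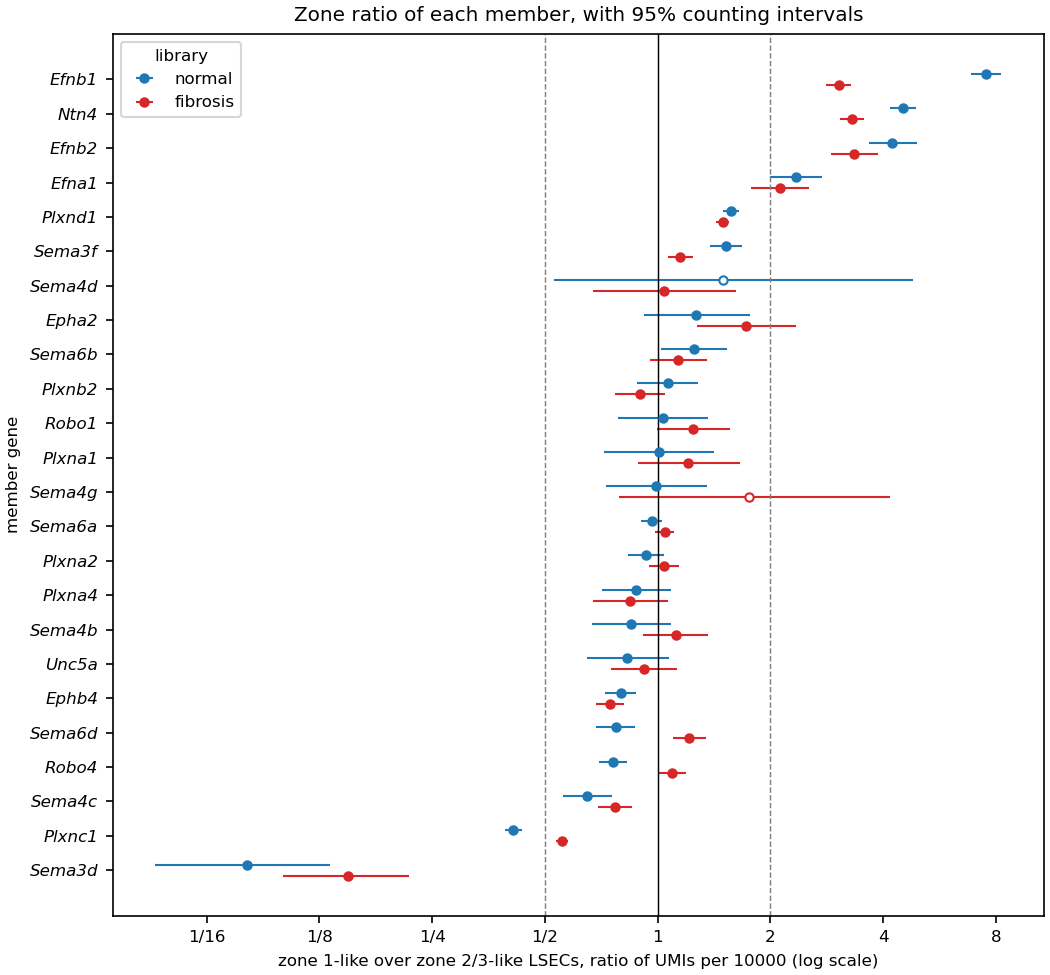
Ratio of the level in zone 1-like to that in zone 2/3-like LSECs (log axis) for each member compared in either library, normal in blue and fibrosis in red, with exact 95% counting intervals; open points missed the level rule in that library, and dashed lines mark 0.5 and 2. Efnb1, Ntn4, Efnb2 and Efna1 lie above 2 in both libraries, Sema3d lies below 0.5 in both, and Plxnc1 lies below 0.5 in the normal library.

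The next comparison was fibrosis over normal in LSEC-like cells as a whole (1972 normal and 1472 fibrosis cells). Cells with no zone made up 969 of the normal and 209 of the fibrosis cells, and sub-clusters matching erythroid, hepatocyte or cycling markers 22 and 392, so the pools differed in makeup. None of the 23 members compared was 2 times higher in fibrosis, where 3.74% of all 9142 genes compared were, and 1 (Sema4g) was 2 times lower, where 5.26% were. The differences that counting error does not cover were between these limits. Plxnc1 was at 9.60 in normal and 14.9 in fibrosis cells (1.56, 1.52 to 1.60), Sema4c at 1.14 and 1.89 (1.67, 1.56 to 1.79) and Sema3f at 2.43 and 3.34 (1.38, 1.31 to 1.45). The portal-side genes were lower in fibrosis, with Efna1 at 1.18 and 0.771 (0.653, 0.60 to 0.711), Efnb1 at 6.23 and 4.19 (0.673, 0.649 to 0.698), Efnb2 at 1.86 and 1.35 (0.725) and Ntn4 at 6.32 and 4.69 (0.741). Sema6b (1.0), Sema6a (0.967) and Robo4 (0.951) were close to the normal level. The median log2 ratio was 0.09 over the members and 0.06 over all genes.

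The zone classes were then compared between the libraries, and their makeup was not the same. Of the zone 1-like cells, 292 of 594 (normal) and 165 of 471 (fibrosis) were in a sub-cluster led by Igfbp5, whose 10 leading genes in fibrosis include Efnb1 and Efnb2. The part of this in the ratios was not tested. Within zone 1-like cells none of 23 members was 2 times higher in fibrosis (3.45% of all genes) and 2 were 2 times lower (5.96%), Epha4 and Sema4g. Epha4 was at 0.159 and 0.0579, a ratio of 0.363. Efnb1 was at 0.566 of its normal level (0.541 to 0.591), Efna1 at 0.617, Ntn4 at 0.670 and Efnb2 at 0.687, while Plxnc1 (1.92, 1.83 to 2.02), Sema4c (1.92, 1.68 to 2.19) and Sema6d (1.60) were higher. Within zone 2/3-like cells none of 23 was 2 times higher (4.32% of all genes) and Sema4g alone 2 times lower (4.61%). Efnb1 was at 1.40 of its normal level there (1.25 to 1.57), Ntn4 at 0.918, Efnb2 at 0.868, and Plxnc1 at 1.43. The zone 2/3-like class of the fibrosis library took in a sub-cluster of 111 cells whose normal counterpart of 138 cells was counted as central-vein-like, and the part of this was not tested either.

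The larger vessels were compared by the same genes. Portal-vessel-like cells (87 and 64 cells) held Efnb1 at 16.4 and 17.4, Ntn4 at 13 and 12.1 and Sema3g at 0.494 and 1.09 (2.22, 1.41 to 3.55) in the normal and fibrosis library. Central-vein-like cells (274 and 103 cells) held Efnb1 at 2.58 and 4.84, Plxnc1 at 6.87 and 11.5, Sema3f at 3.59 and 6.00, Plxna4 at 1.04 and 0.509 and Sema6b at 0.749 and 0.362. A normal sub-cluster of 138 cells matched the central-vein and the zone 2/3 marker lists equally well and was counted as central-vein-like. A fibrosis sub-cluster of 111 cells, which shared Lhx6, Kit, Cdh13, Cyp26b1, Wnt2 and Thbd with it among the 10 leading genes, was counted as zone 2/3-like, so both classes differ in makeup between the libraries.

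Sema4g, a transmembrane semaphorin, was lower in fibrosis in every named class present in both libraries. Sema4g was at 0.284 in normal and 0.0404 in fibrosis LSEC-like cells (ratio 0.142, 0.103 to 0.193), at 0.256 and 0.0164 in Kupffer-like cells (0.0639) and at 0.375 and 0.0685 in lymphoid cells (0.183, 0.118 to 0.273). In the normal library hepatocyte-like cells had the highest level, 1.35, and in the fibrosis library they had 0.616. Cholangiocyte-like cells, at 0.429 and 0.389, differed least. The 25 hepatocyte markers, none at 0, summed to 267 and 20.8 UMIs per 10000 in LSEC-like cells, 301 and 37.9 in Kupffer-like cells, 421 and 40.8 in lymphoid cells and 283 and 135 in cholangiocyte-like cells of the normal and fibrosis library. Hepatocyte-like cells numbered 1018 and 146, and the part of hepatocyte RNA in the Sema4g counts of other classes was not tested.

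The HSC/MF-like class (64 normal and 122 fibrosis cells) was compared next. Of 33 members compared, 5 were at least 2 times higher in fibrosis (15.2%), where 8.99% of all 9050 genes compared were, and none was 2 times lower, where 7.25% were. They were the receptors Epha3, Epha2, Unc5b and Robo2 and the transmembrane semaphorin Sema5a. The median log2 ratio of all 33 was 0.06, beside 0.04 over all genes. The median cell held 6278 UMIs in the normal and 11488 in the fibrosis class.

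Robo2, a Slit receptor (chromosome 16, 73891839 to 74411825), had 107 UMIs and a level of 2.44 (2.0 to 2.95) in normal HSC/MF-like cells and 924 UMIs and 6.19 (5.80 to 6.60) in those of the fibrosis library, a ratio of 2.54 (2.08 to 3.13). Outside the mesenchymal classes Robo2 was at most 0.0822 in the normal (pDC-like) and 0.178 in the fibrosis library (erythroid-like). Epha3, an ephrin-A receptor (chromosome 16, 63543534 to 63864175), was at 0.433 (19 UMIs) and 2.16 (322 UMIs), a ratio of 4.98 (3.14 to 8.39). Unc5b, a netrin receptor, was at 0.661 (29 UMIs) and 2.14 (319 UMIs), a ratio of 3.23 (2.21 to 4.91). Sema5a had 1 UMI in the normal and 75 in the fibrosis cells (levels 0.0228 and 0.502), so that its ratio of 22.1 had an interval from 3.84 to 883. Epha2 had 8 and 61 UMIs (0.182 and 0.409) and a ratio of 2.24 (1.07 to 5.43), whose lower bound is near 1.

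Ntn1, a ligand of Unc5b, went the other way, at 5.33 (234 UMIs) in normal and 2.77 (414 UMIs) in fibrosis HSC/MF-like cells. The ratio of 0.520 (0.442 to 0.613) missed the 2-fold limit by little. Ntn1 was still highest in the HSC/MF-like class in both libraries. Sema6d (4.28 and 4.45), Sema6c (0.843 and 0.777), Epha7 (1.57 and 2.08), Efna5 (0.934 and 1.27) and Unc5a (0.410 and 0.402) stayed within 1.4 times. Sema3d was at 1.94 and 1.45 (0.747, 0.579 to 0.972) and Plxnb2, a receptor for class 4 semaphorins, at 1.34 and 2.03 (1.51, 1.14 to 2.03). Slit2 and Slit3, the ligands of Robo2, were close to absent from HSC/MF-like cells, with 0 (normal) and 1 (fibrosis) UMIs of Slit2 and Slit3 at 0.0191 and 0.0310 in both fibrosis sub-clusters.

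The fibrosis HSC/MF-like class held 2 sub-clusters, 1 of 69 cells led by S100a9, Tmem56 and Vipr1 (median 6314 UMIs, beside 6278 in the normal cells) and 1 of 53 cells led by Vegfd, Tnc and Lox (median 17183 UMIs). Epha3 and Robo2 were themselves among the leading genes of the second, and Robo2 among those of the normal HSC/MF-like cells. Robo2 was at 3.75 in the first and 7.51 in the second, Epha3 at 1.33 and 2.60, Unc5b at 1.28 and 2.60, and Sema5a at 0.438 and 0.537. All of these were above the normal level in both sub-clusters. Set against the normal class, Epha3 (3.08 and 6.01) and Sema5a (19.2 and 23.6) passed 2 in both, whereas Robo2 (1.54) and Unc5b (1.93) missed it in the first alone and Epha2 (1.81) in the second alone. Epha7, an ephrin-A receptor, was about the same in both (2.12 and 2.07). A further group of 82 fibrosis cells led by Mfap4, Col6a6 and Fgl2 had Lrat at 3.31 and was kept apart. It held Robo2 at 3.41, Epha3 at 1.02, Unc5b at 2.28, Epha7 at 1.47 and Plxna4 at 3.05.

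The Slits were in normal portal fibroblast-like cells and in some vessel and epithelial classes. Normal PF-like cells (portal fibroblast-like, 44 cells) held Slit3 at 1.15 (41 UMIs), Slit2 at 0.815 (29 UMIs), Epha3 at 1.63, Sema5a at 1.46 and Plxna4 at 2.33. In the fibrosis library 2 groups of cells matched the portal fibroblast list best. The Mfap4-led group of 82 cells, kept apart for its Lrat, held Mfap4 at 4.94 and Dpt at 19.5, beside 5.45 and 34.9 in the normal PF-like cells. The other, 29 cells led by Clca3a2, Cxcl5 and Fndc1, held Mfap4 at 0.0945 and Dpt at 2.16. The portal fibroblast markers Thy1 and Pi16 were at 0.112 and 0.00748 in the Mfap4-led cells and at 0.177 and 0.0355 in the Clca3a2-led cells. In the normal PF-like cells they were at 1.04 and 3.12. Fbln2, another such marker, was at 0.606 in the Mfap4-led cells but at 7.99 in the Clca3a2-led cells, above 3.15 in the normal PF-like cells. Neither fibrosis group matched the normal one in all of these markers, so no ratio between the libraries is given. The Clca3a2-led cells held Slit3 at 3.42 (289 UMIs), Slit2 at 0.0355 (3 UMIs, all in 1 cell), Epha3 at 0.106 and Robo2 at 0.0473. Epha7 had 0 UMIs in the Clca3a2-led cells, which allows a level of up to 0.0355 at a floor of 3 counts. Slit2 was highest in fibrosis in portal-vessel-like cells (0.403).

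Mesothelial-like cells (45 and 48 cells), the lining of the liver surface, held several members at their highest level. Sema3c, a secreted semaphorin, was at 9.59 in normal and 4.86 in fibrosis cells, a ratio of 0.507. Sema3d was at 4.93 and 3.74, Plxna4, a class 3 semaphorin receptor, at 4.73 and 4.08, Ephb1 at 1.25 and 1.26, Efna5 at 2.09 and 2.69 and Ephb6, a kinase-inactive Eph, at 0.536 and 0.697. For all of these the mesothelial-like class was the highest in both libraries. Several were also in other classes. Plxna4 was at 2.33 in normal PF-like and 3.05 in fibrosis Mfap4-led cells, and Efna5 at 0.934 and 1.27 in HSC/MF-like cells. Sema3d was at 1.26 and 2.24 in central-vein-like cells and at 1.94 and 1.45 in HSC/MF-like cells. Ephb1 had no more than 8 UMIs in any other named class of either library.

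**Figure D3:**
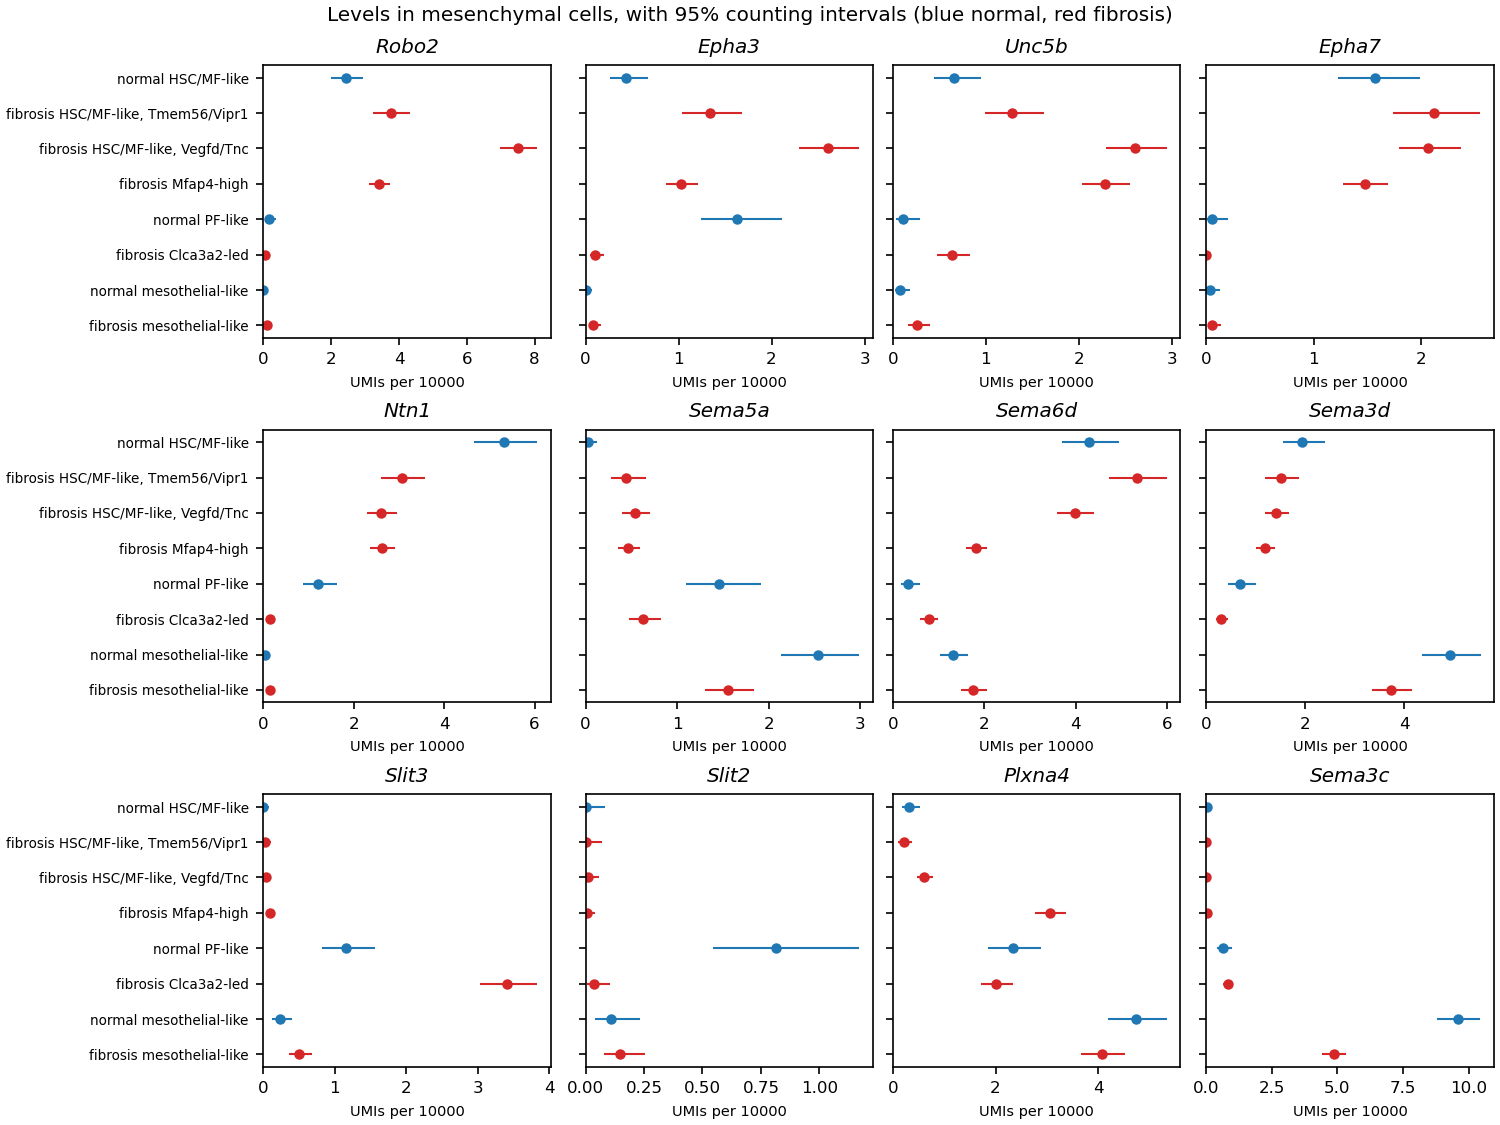
Levels in UMIs per 10000, with exact 95% counting intervals, of 12 members in the mesenchymal groups (normal blue, fibrosis red). Robo2, Epha3 and Unc5b are higher in both fibrosis HSC/MF-like sub-clusters than in the normal HSC/MF-like cells, Ntn1 is lower, Slit3 is highest in PF-like and Clca3a2-led cells and Slit2 in normal PF-like cells, and Sema3c and Sema3d are highest in mesothelial-like cells.

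Markers of other cell types were counted in the HSC/MF-like class. The 37 endothelial markers summed to 54.3 UMIs per 10000 in normal and 40.4 in fibrosis HSC/MF-like cells, or 11.9% and 9.28% of the LSEC-like level, with none of the 37 at 0. Hepatocyte markers (25 genes) summed to 237 and 17.5 there and B-cell markers (24 genes, 3 and 1 at 0) to 69.8 and 4.39, so that both were lower in the fibrosis class, and their part in the differences was not tested. For 11 members with a level of at least 1 in LSEC-like cells of both libraries, the HSC/MF-like level was 2.45% to 64.2% of the LSEC-like one in the normal library (median 15.9%) and 4.57% to 37.8% in fibrosis (median 14.3%). Plxnc1 (2.92 and 2.59), Plxnd1 (1.98 and 1.87), Efnb1 (1.21 and 1.24) and Ntn4 (0.456 and 0.388) were among these 11, and the part of endothelial RNA in them was not tested. Robo2, Epha3, Sema5a and Unc5b were not among the 23 members compared in LSEC-like cells, where they missed the level rule. Epha2, also called higher in fibrosis HSC/MF-like cells, was among the 23, at 0.267 and 0.275 in LSEC-like cells. Its normal HSC/MF-like level was 68.3% of the LSEC-like one, and the part of endothelial RNA in it was not tested. Mesenchymal cells that carried endothelial markers (60 and 132 cells) were left out of the class. They too held Robo2 at 0.853 and 1.75, Epha3 at 0.208 and 0.598, Unc5b at 0.426 and 0.743, and Ntn1 at 2.91 and 1.58.

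**Figure D4:**
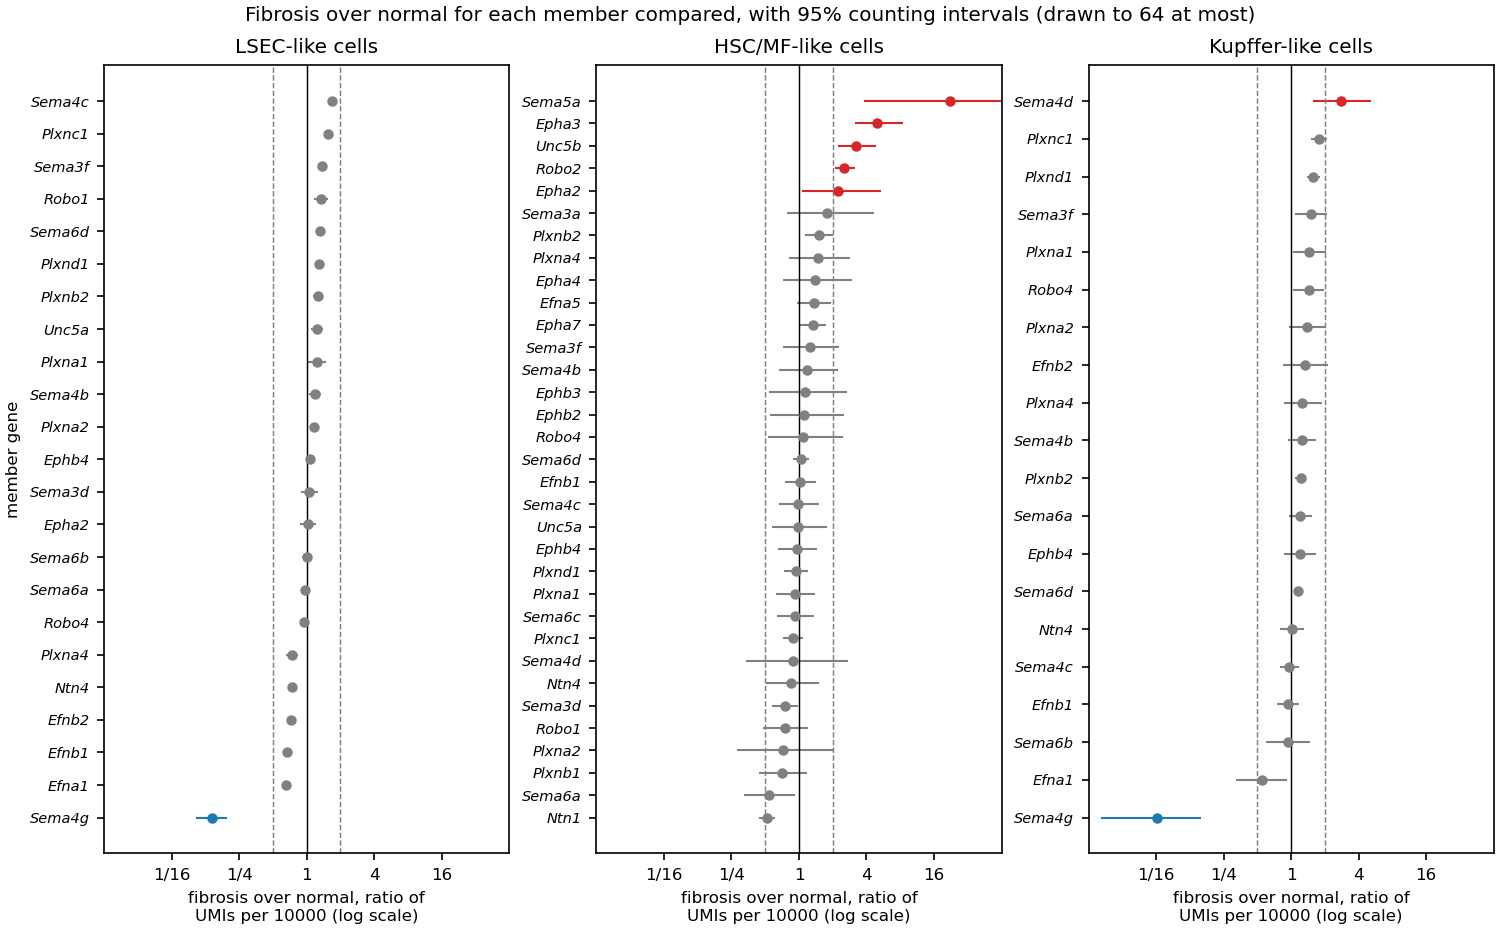
Fibrosis over normal ratio of the level (log axis) of each member compared in LSEC-like, HSC/MF-like and Kupffer-like cells, with exact 95% counting intervals drawn to 64 at most; red marks a ratio of at least 2, blue one of at most 0.5 and dashed lines these limits. Sema5a, Epha3, Unc5b, Robo2 and Epha2 pass 2 in HSC/MF-like cells, Sema4d passes it in Kupffer-like cells, and Sema4g lies below 0.5 in LSEC-like and Kupffer-like cells.

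Macrophage-like cells were 444 Kupffer-like cells in the normal library, and 263 Kupffer-like and 508 Trem2-macrophage-like cells in the fibrosis library, so that the pooled class differed in makeup. Pooled, 2 of 21 members (Sema4d and Plxna1) were at least 2 times higher in fibrosis (9.52%, against 5.52% of all 8907 genes) and 3 (Sema6d, Efna1 and Sema4g) 2 times lower (14.3%, against 7.12%). Within Kupffer-like cells only Sema4d of 20 was 2 times higher (3.85% of all genes) and only Sema4g 2 times lower (5.38%). Sema4d, CD100, a semaphorin of leukocytes that binds Plxnb1 and Plxnb2, was at 0.0683 in normal Kupffer-like cells (16 UMIs). It was at 0.190 in fibrosis Kupffer-like cells (2.78, 1.58 to 5.18) and 1.23 in Trem2-macrophage-like cells (948 UMIs). Sema4d was also higher in fibrosis in LSEC-like cells, which missed the level rule for it (0.0377 and 0.132, ratio 3.50), and the Kupffer-like level was 181% and 144% of the LSEC-like one. The 1 member past 2 times among 20 is close to the share of all genes.

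Sema6d, a transmembrane semaphorin highest in HSC/MF-like cells, had its next highest level in Kupffer-like cells of both libraries (3.39 and 3.90, ratio 1.15) and was at 0.687 in Trem2-macrophage-like cells. Its pooled ratio of 0.472 was therefore on the other side of 1 from the ratio within Kupffer-like cells. Plxna1, the receptor reported for Sema6d together with Trem2, was at 0.235 and 0.341 in Kupffer-like cells and at 0.797 in Trem2-macrophage-like cells, the highest level of Plxna1 in the fibrosis library. Plxnb2 was high in all macrophages (2.14 in normal Kupffer-like, 2.61 in fibrosis Kupffer-like and 2.53 in Trem2-macrophage-like cells). The 37 endothelial markers stood at 10.4% of the LSEC-like level in normal and 12.6% in fibrosis Kupffer-like cells.

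Class 4 semaphorins were spread over several immune classes. Sema4a was at 1.81 and 1.71 in neutrophil-like cells, 1.53 and 0.898 in NK-cell-like cells, 1.34 and 1.02 in conventional dendritic (cDC-like) cells, 1.19 and 0.401 in monocyte-like cells (0.337, 0.262 to 0.433) and 0.715 and 1.06 in T-cell-like cells (1.48). Sema4d was at 1.87 and 1.52 in monocyte-like cells, 1.83 and 1.96 in plasmacytoid dendritic (pDC-like) cells, 0.995 and 1.90 in cDC-like cells and 0.684 and 1.88 in T-cell-like cells (2.76, 2.21 to 3.45). The makeup of the NK- and T-cell-like classes differed between the libraries. In NK-cell-like cells the 24 B-cell markers summed to 14.7 and 153 UMIs per 10000 and the 27 T-cell markers to 95.9 and 30.2, and 239 of the 349 fibrosis cells came from a cluster with Jchain, Igkc and Igha among its 10 leading genes, so no ratio is given for them. In T-cell-like cells the B-cell markers summed to 166 and 44.2 and the T-cell markers to 60.5 and 95.6. Their part in the Sema4a and Sema4d levels was not tested. Sema4b was a pDC gene (2.37 and 2.59), with a lower level in B-cell-like cells (0.674 and 0.848). The pDC-like class also held the highest Epha2 (0.968 and 0.890), Robo3 (0.240 and 0.184) and Sema7a (0.297 and 0.215) of either library. Sema4f was highest in cDC-like cells (0.105 and 0.139).

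Lymphoid cells (B-, T- and NK-cell-like, 1594 normal and 1328 fibrosis cells) were compared as 1 pooled class, whose makeup differed. The fibrosis pool took in a B-cell-like cluster of 260 and an NK-cell-like cluster of 239 cells, both with Jchain, Igkc and Igha among their leading genes. The 111 plasma-cell-like cells of the normal library were a separate class outside the pool. The part of this in the ratios was not tested. Of 22 members compared, 6 (Ntn1, Sema6d, Plxnc1, Sema4c, Sema3f and Plxnd1) were at least 2 times higher in fibrosis (27.3%, against 8.41% of all 9754 genes), and 1, Sema4g, was 2 times lower (4.55%, against 6.62%). The median log2 ratio was 0.75 over the members and 0.16 over all genes. Plxnc1 was at 1.32 and 4.06 (3.07, 2.82 to 3.35) and Plxnd1 at 1.61 and 4.05 (2.52, 2.33 to 2.74). Over the same libraries the 37 endothelial markers in lymphoid cells went from 14.8% to 24.9% of the LSEC-like level. For 11 members with a level of at least 1 in LSEC-like cells of both libraries, the lymphoid level was 12.0% to 24.8% of the LSEC-like one in the normal library (median 15.1%) and 21.3% to 40.6% in fibrosis (median 28.9%). The range of these members took in the share of the endothelial markers in both libraries. Ntn1, which is low in LSEC-like cells, was at 0.0475 (28 UMIs) and 0.226 (89 UMIs) in lymphoid cells. Other marker sums were also higher in the fibrosis lymphoid cells, with the 38 HSC/MF markers at 3.13 and 25.9 and the 18 Kupffer markers at 10.6 and 41.7 UMIs per 10000, and their part in the lymphoid levels of Ntn1 and Sema6d was not tested.

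The marker share differed by class. The endothelial marker share was 9.50% (normal) and 26.5% (fibrosis) for B-cell-like cells, 8.32% and 34.5% for NK-cell-like cells, 5.73% and 39.2% for monocyte-like cells, and 20.5% and 41.3% for pDC-like cells. In T-cell-like cells it was lower in fibrosis, 27.4% and 13.3%, and there Efnb1 was also lower (1.62 and 0.570, ratio 0.351). Plxnd1 (0.871) and Sema3f (0.705) were below 1 in T-cell-like cells as well. The levels of Plxnc1 (2.07 and 2.33), Sema4c (0.431 and 0.508) and Sema6d (0.468 and 0.850) were higher in fibrosis T-cell-like cells. As shares of the LSEC-like level, however, Plxnc1 (21.5% and 15.6%) and Sema4c (38.0% and 26.8%) were lower in fibrosis, as the marker share was. Sema6d was higher on that scale too. The part of endothelial RNA in these levels was not tested. By contrast, the lymphoid level of Sema4a was 958% and 1069% of the LSEC-like one, and that of Sema4d 2628% and 1010%.

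**Figure D5:**
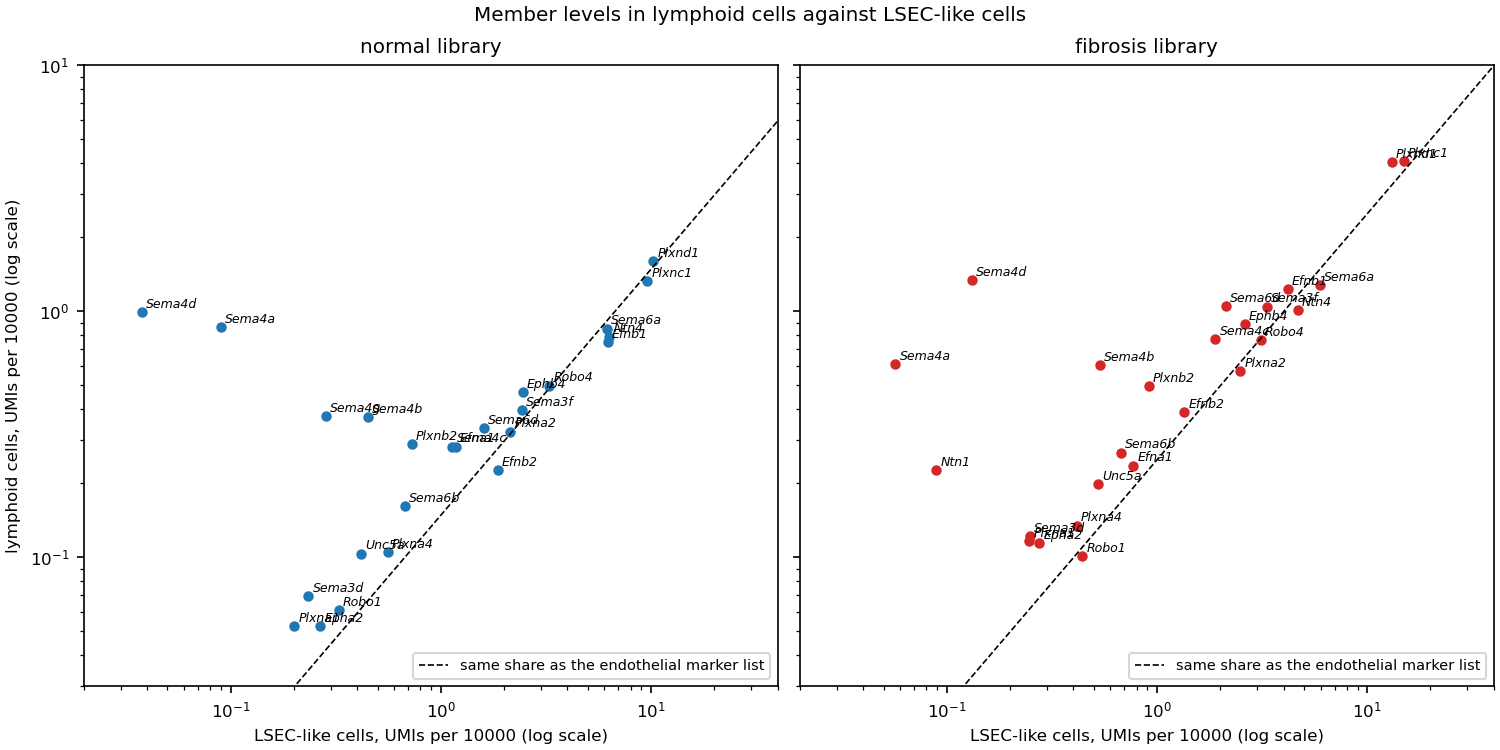
Level of each member in lymphoid cells against its level in LSEC-like cells (both axes log, UMIs per 10000) in the normal (left, blue) and fibrosis (right, red) library; the dashed line is the share of the LSEC-like level at which the 37 endothelial markers stood in lymphoid cells, 14.8% and 24.9%. The endothelial members lie along the line in both libraries, and Sema4a, Sema4d and Sema4b lie above it.

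Epithelial cells held the fewest members. Cholangiocyte-like cells (235 and 90 cells), the lining of the bile ducts, were highest for Plxnb1, the receptor of Sema4d (1.49 and 1.69), for Efna4 (0.218 and 0.261), Epha1 (0.192 and 0.228) and Plxna3 (0.214 and 0.167) in both libraries. They also held Sema5a at 1.51 and 2.09, Sema3c at 1.06 and 1.74, Epha2 at 0.317 and 0.772, Unc5b at 0.211 and 0.50 and Slit2 at 0.0480 and 0.272. The Slit2 level in cholangiocyte-like cells of the fibrosis library was next to that of portal-vessel-like cells (0.403), its highest class there.

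Beside the members, 43 co-receptors and cytoplasmic effectors of the same pathways were listed, and those that met the level rule were compared. Of 27 compared between zones in the normal library, Flrt2, an Unc5 ligand, was higher in zone 1-like cells (1.20 and 0.209, ratio 5.78) and Tiam1, a Rac exchange factor, lower (0.193 and 0.897, 0.215), beside 3.0% and 1.67% of all genes. In the fibrosis library 1 of 31 was higher, Rnd1, and 0 lower, beside 0.93% and 0.896% of all genes. The neuropilin Nrp1 was at 11.1 and 11.4 in LSEC-like cells and Nrp2 at 4.92 and 5.76. In LSEC-like cells 3 of 30 were 2 times higher in fibrosis (Cd72, Rnd1 and Trem2) and 1 lower, Rnd3, a small GTPase (1.02 and 0.496, 0.485), beside 3.74% and 5.26% of all genes.

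In HSC/MF-like cells 3 of 27 pathway genes were 2 times higher in fibrosis (Dpysl3, Mical2 and Trem2) and 1 lower, beside 8.99% and 7.25% of all genes. Dpysl3, a collapsin response mediator, was at 0.0683 and 0.589 (8.63), and Vav2, an effector downstream of Eph receptors, at 0.524 and 0.141 (0.268). Neo1, the Dcc-family netrin receptor, was at 0.592 and 0.536. In macrophage-like cells 3 of 24 were higher (Nrp2, Trem2 and Vav3) and 0 lower, beside 5.52% and 7.12% of all genes, with Nrp2 at 0.410 and 1.24 (3.02). In lymphoid cells 6 of 30 were higher and 0 lower, beside 8.41% and 6.62% of all genes, Nrp2, Flrt2 and Tiam1 among them. Trem2 was counted as higher in fibrosis in every one of these cell types, and the part of macrophage RNA in this was not tested.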

How the data were processed

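The authors deposited, for each library, a table of raw UMI counts per gene and cell, which per the submitters' processing notes were made with Cell Ranger 3.0.1 on mm10. Nothing was normalised before deposit, and how strand was used in counting is not given in the sources used here. Of the members, Epha1, Ephb1, Ephb4, Ntn5 and Unc5a overlap a coding gene on the other strand in the GENCODE annotation. The methods state that doublets were excluded, yet the tables hold every barcode counted above. Scrublet (expected rate 0.06) called 1 cell in each library, which is too few to rely on, and none was removed.

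Each library was clustered on its own with scanpy 1.11.5 and leidenalg 0.10.2 (2000 variable genes, 10 components, 20 neighbours, resolution 0.8), with members and pathway genes held out of the clustering. Clusters were named from fixed marker lists, but how they were matched to the lists, and the Mfap4-led group kept apart, were settled after the clusters were seen. The classes are therefore rebuilt and may differ from those of the study. The members, lists and comparisons were chosen with earlier results of these data known.

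UMIs were summed over the cells of a class and divided by all UMIs of that class, per 10000, with exact Poisson intervals for levels and exact conditional intervals for ratios (scipy 1.17.1, 95%). They cover counting error only, since reads of 1 library come from 1 mouse. A count of 0 was given a floor of 3 counts. The comparison code was tested on simulated counts. Values are printed for members with at least 0.1 UMIs per 10000 and 20 UMIs in a class of either library, most fully for those past 2 times, and the others are named. Of other genes only pathway genes and markers are named. Alternatives were other folds, level rules, normalisations, cell filters, resolutions and class definitions. Those that split or pool classes by sub-cluster were added after the data were seen. Promoter windows were read from RefSeq by symbol.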

Additional observations from a re-analysis of the deposited data

Results flagged for a closer look

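Efnb1 stood out because its fibrosis over normal ratio had opposite directions on the portal and central sides of the sinusoid. The ratio of Efnb1 was 0.566 (0.541 to 0.591) in zone 1-like cells, whereas zone 2/3-like cells gave 1.40 (1.25 to 1.57). Robo4 did so the other way round, with 1.17 (1.08 to 1.27) on the portal side and 0.811 (0.742 to 0.887) on the central side. Each rests on 1 library per condition, and the difference between zones was not tested. Both zone classes differed in makeup between the libraries. The sub-cluster led by Igfbp5 gave 292 of 594 normal and 165 of 471 fibrosis zone 1-like cells. Of the sub-clusters with Lhx6, Wnt2 and Thbd among their leading genes, the fibrosis one of 111 cells was counted as zone 2/3-like and the normal one of 138 cells as central-vein-like. The part of makeup in these ratios was not tested.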

How the results depend on the processing

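No paired analysis was possible because each condition had 1 library, and for the same reason no replicate could be left out. With only 1 UMI required in each group, the counts of members past 2 times were 14 between normal and 15 between fibrosis zones, 20 in LSEC-like, 9 in HSC/MF-like, 17 in macrophage-like and 27 in lymphoid cells, against 6, 5, 1, 5, 5 and 7 as reported. A level of 0.02 gave 6 in LSEC-like and 17 in lymphoid cells. A fold of 1.5 gave 4 in LSEC-like, 9 in HSC/MF-like, 10 in macrophage-like and 16 in lymphoid cells. UMIs per cell gave 5, 14 and 14 in LSEC-like, HSC/MF-like and macrophage-like cells, and turned Efna1 (1.031) and Sema6d (1.251) in the last, but this scale multiplies every gene by the ratio of UMIs per cell (median 4605.5 and 12060 in normal and fibrosis macrophage-like cells), so these values say nothing particular to the members. The mean over cells gave 2 in LSEC-like cells.

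In HSC/MF-like cells the count was 8 without the 3 cells richest in each gene, 3 over whole clusters (where Sema5a was 2.85 and Unc5b 1.97), 3 for the Tmem56-led sub-cluster alone and 9 with the Mfap4-led cells. In macrophage-like cells it was 8 at resolution 0.4 and 2 in Kupffer-like cells alone, where Sema6d turned (1.153). In lymphoid cells it was 12 without the highest 5% of Scrublet scores, 16 in B-cell-like and 18 in NK-cell-like cells, and in T-cell-like cells Plxnd1 (0.8713) and Sema3f (0.7046) turned. The causes were not tested. A mitochondrial limit of 5% gave no value for fibrosis zones or HSC/MF-like cells, because these classes were not found. The zone calls were kept under every other alternative that was run, and under that limit 4 of 6 were kept in the normal library. Members under 0.1 UMIs per 10000 were left out by the level rule. Depth limits the small classes most, 3 UMIs being 0.0355 per 10000 in the 29 Clca3a2-led cells.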
